A study of Mus musculus with 8 samples.

Results

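Immediate early genes are genes whose transcripts accumulate within minutes of a stimulus, because the factors that switch them on already lie in the cell. The 45 genes described here are a fixed list of such genes and of genes that restrain the same signal: AP-1, EGR, NR4A, KLF, MYC and small MAF transcription factors, IER proteins, phosphatases of mitogen-activated protein kinases (MAPK), Sprouty and Tribbles proteins, RNA binding proteins of the tristetraprolin family, growth arrest and survival genes, and genes of NF-kB signalling. Members were listed by name, with earlier results of these libraries already known. All 45 were found among the 15948 genes of the deposited table.

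The kidneys came from a study of Arhgef11, a guanine nucleotide exchange factor, in hypertension and kidney injury. Messenger RNA of 3 mouse kidney samples labelled Arhgef11Sglt2_DOCA was compared with that of 5 samples labelled Sglt2Cre_DOCA. Sglt2 (Slc5a2) is a glucose transporter gene expressed in the first segments of the proximal tubule. The title of the study speaks of a knockout limited to that tubule, so the Arhgef11Sglt2 label is read as deletion of Arhgef11 in those cells and the Sglt2Cre label as mice with the recombinase alone. DOCA commonly stands for deoxycorticosterone acetate, a mineralocorticoid used to raise blood pressure in rodents. Both groups carry the DOCA label, so kidneys without DOCA were not analysed here. The labels used here give no dose, duration, age, sex or strain.

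The samples were whole kidney, in which fewer cells of a type and less RNA per cell cannot be told apart. Normalized counts summed to between 43039280 and 45657416 in the Arhgef11Sglt2 libraries and between 45181960 and 46676184 in the Sglt2Cre libraries. No label ties the samples to separate animals, so a p-value here measures sample spread that may in part be technical. Arhgef11 itself (ENSMUSG00000041977) had 2935, 3919 and 3905 normalized counts in the Arhgef11Sglt2 libraries and 3629, 3479, 3682, 3680.2 and 3928 in the Sglt2Cre libraries (limma adjusted p = 0.834). The groups overlapped, so the whole-gene value does not check the labels, and groups are named by label throughout. Proximal tubule markers were lower, with 4 of 10 past the threshold, all in that direction, and summed levels of 401334 to 599555 normalized counts in Arhgef11Sglt2 against 639094 to 764738 in Sglt2Cre. Markers of injured proximal tubule were past the threshold for 2 of 8, Lcn2 and Krt20, both higher. The summed levels of the 8 ran from 412745 to 937205 in Arhgef11Sglt2 and from 172299 to 600300.4 in Sglt2Cre. Most of each sum was Spp1, which was not called (limma adjusted p = 0.212). The part of these shifts in the results below was not tested.

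Growth factor, stress and cytokine receptors activate the ERK, JNK and p38 MAPK cascades, which phosphorylate factors already bound at immediate early promoters. The first wave of products, such as FOS, JUN, EGR1 and MYC, are transcription factors that act on later genes, while DUSP phosphatases and Sprouty proteins switch the kinases off and tristetraprolin speeds the decay of the short-lived messages. In the kidney these genes are known to be induced soon after ischaemic or toxic tubule injury.

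A gene rose in Arhgef11Sglt2 kidneys in 4 of the 9 roles: Fosl2 among the AP-1 subunits, Ier3 among the IER proteins, Myc among the other transcription factors and Zfp36 among the RNA binding proteins. In limma, a linear model with moderated variances fitted on the whole table, these 4 of 45 members passed a Benjamini-Hochberg adjusted p of 0.05 over 15948 genes, all higher, where 0.627% of all genes were called higher and 2.22% in either direction. No member was called lower in limma, where 1.59% of all genes were. At an unadjusted p under 0.05 no member was lower either, where 12.1% of all genes were. The median log2 difference over the 45 members was 0.27, against -0.01 over all genes. On the log2(normalized count + 1) and log2(normalized count + 10) scales, which shrink low genes less, it was 0.479 and 0.432. Of the 45 differences 41 were positive, as were 47.9% of all genes. Every Arhgef11Sglt2 library lay above every Sglt2Cre library for 12 members, or 26.7%, which held for 6.2% of all genes. That count was 25 without Arhgef11Sglt2 replicate 2 (10.8% of all genes) and 19 without Sglt2Cre replicate 3 (7.66%). Without Arhgef11Sglt2 replicate 1 it was 16, where the share of all genes rose to 14.8%. With any of the other libraries left out it was between 12 and 15, against 7.2% to 7.8% of all genes. No member lay below every Sglt2Cre library in all 3, as 8.14% of all genes did. At an unadjusted limma p under 0.05, 25 members (55.6%) and 9.04% of all genes were higher with all libraries. Without Arhgef11Sglt2 replicate 3 the members numbered 15, and the share of all genes in that fit is not given here. A fold over 1.5 was seen for 20 members (44.4%) and 5.37% of all genes, and for 11 members without Arhgef11Sglt2 replicate 3, where it was seen for 4.35% of all genes. These counts by library were added after the data were seen. These counts describe a list that was named with earlier results of these libraries in view, and the list as a whole was not tested.

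**Figure D1:**
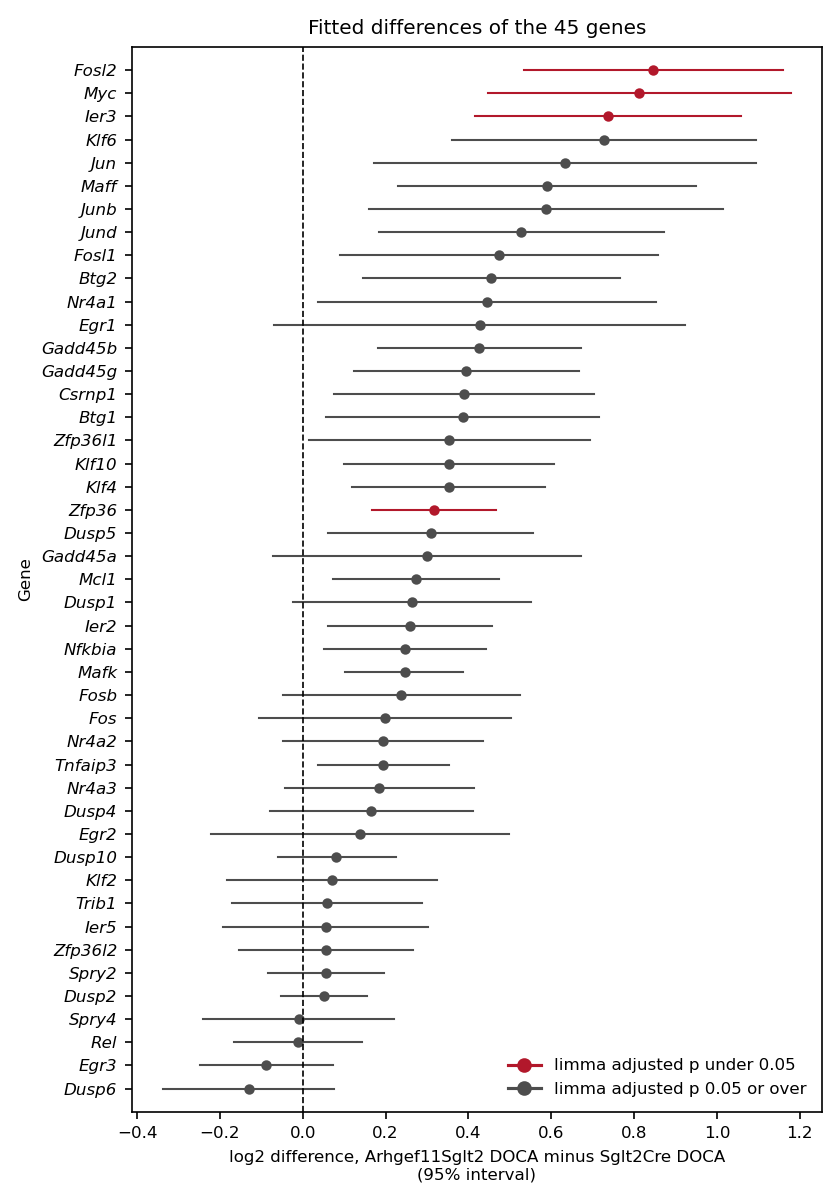
Fitted log2 difference (x axis, Arhgef11Sglt2 DOCA minus Sglt2Cre DOCA, log2 units) for each of the 45 genes (y axis), with 95% intervals as lines and the 4 genes past the limma threshold in red. Fosl2, Myc and Ier3 have the highest differences, Zfp36 combines a difference of 0.32 with a narrow interval, and Spry4, Rel, Egr3 and Dusp6 lie below 0, of which Spry4 and Rel change sign when libraries are scaled to equal totals.

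Fosl2 (ENSMUSG00000029135) encodes FRA2, a FOS family subunit of AP-1 that outlasts FOS after a stimulus. It had 2783, 2788 and 3984 normalized counts in the Arhgef11Sglt2 libraries and 1537, 1078, 1700.2, 1673 and 1733 in the Sglt2Cre libraries. The groups did not overlap, and replicate 3 of Arhgef11Sglt2 was highest while replicate 2 of Sglt2Cre stood below the other controls. The group means were 3185 ± 692 and 1544 ± 271 normalized counts (SD, n = 3 and 5), a fold of 2.06 (log2 difference 0.85, SE 0.14, limma adjusted p = 0.0219). The call was lost without Arhgef11Sglt2 replicate 3 (adjusted p = 0.0704) and without Sglt2Cre replicate 4 or 5 (0.0589 and 0.0513).

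Myc (ENSMUSG00000022346), the growth-promoting transcription factor, had 1166, 924 and 1827 normalized counts in the Arhgef11Sglt2 libraries and 670.4, 358, 619, 598 and 454 in the Sglt2Cre libraries. All 3 Arhgef11Sglt2 libraries were above the highest control. The means were 1306 ± 468 and 539.8 ± 129 (SD), a fold of 2.42 (log2 difference 0.81, SE 0.16, limma adjusted p = 0.0417). Leaving out Arhgef11Sglt2 replicate 3 ended the call (adjusted p = 0.118), as did leaving out any control, with adjusted p of 0.0569, 0.0577, 0.0723, 0.0929 and 0.0921 without Sglt2Cre replicates 1 to 5.

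Ier3 (ENSMUSG00000003541), a stress-induced protein that modulates apoptosis and ERK signalling, had 1319, 1763 and 2035 normalized counts in the Arhgef11Sglt2 libraries and 762, 929.5, 1156, 718 and 626 in the Sglt2Cre libraries. The lowest Arhgef11Sglt2 library was above Sglt2Cre replicate 3, the highest control. The means were 1706 ± 362 and 839 ± 209 (SD), a fold of 2.03 (log2 difference 0.74, SE 0.14, limma adjusted p = 0.0387). The call ended without Arhgef11Sglt2 replicate 2 or 3 (adjusted p = 0.0696 and 0.154) and without Sglt2Cre replicate 1, 4 or 5 (0.0729, 0.0962 and 0.0844).

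Zfp36 (ENSMUSG00000044786) encodes tristetraprolin, which binds AU-rich elements and recruits the machinery that removes poly(A) tails. It had 1576, 1824 and 1856 normalized counts in the Arhgef11Sglt2 libraries and 1302, 1202, 1361, 1331 and 1353 in the Sglt2Cre libraries. The controls lay close together, and the groups did not overlap. The means were 1752 ± 153 and 1309.7 ± 64.6 (SD), a fold of 1.34 (log2 difference 0.32, SE 0.07, limma adjusted p = 0.0467). The call held without Arhgef11Sglt2 replicate 1 and ended without replicate 2 or 3 (adjusted p = 0.0888 and 0.164) or any of Sglt2Cre replicates 1 to 5 (0.0893, 0.0721, 0.0908, 0.108 and 0.0921).

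**Figure D2:**
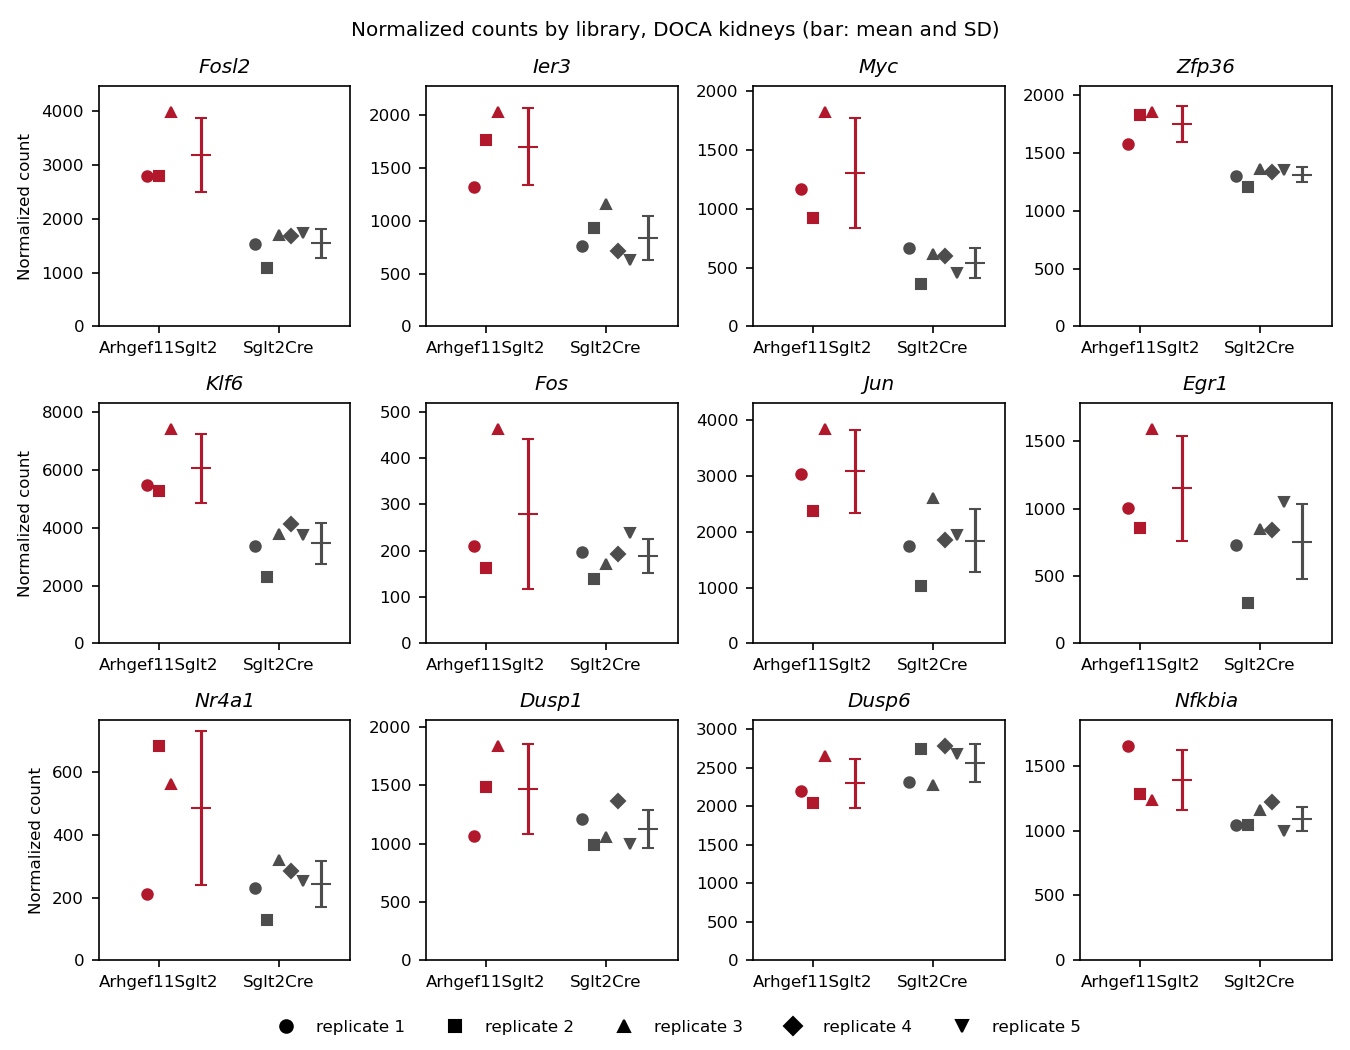
Normalized counts (y axis, starting at 0) of 12 genes in the 3 Arhgef11Sglt2 DOCA libraries (red, left) and the 5 Sglt2Cre DOCA libraries (grey, right), with a symbol for each replicate and the group mean with its SD beside the points. Fosl2, Ier3, Myc, Zfp36, Klf6 and Nfkbia do not overlap between the groups, while Fos, Jun, Egr1, Nr4a1, Dusp1 and Dusp6 do.

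The library names carry numbers that form 2 ranges, a lower one (Arhgef11Sglt2 replicates 1 and 2, Sglt2Cre replicates 1, 2 and 3) and an upper one (Arhgef11Sglt2 replicate 3, Sglt2Cre replicates 4 and 5). Whether they mark separate cohorts is not stated. The median log2 difference over the members was 0.22 within the lower range, with 41 of 45 positive. Within the upper range, which holds 1 Arhgef11Sglt2 library, it was 0.46, with 39 of 45 positive. Over all genes the medians were -0.0 and -0.021, and shares of positive differences were not counted by range. Within the lower and the upper range the log2 difference was 0.78 and 1.02 for Fosl2, 0.60 and 1.23 for Myc, 0.50 and 1.14 for Ier3, and 0.30 and 0.36 for Zfp36. With the range as a covariate in limma, 5 members were called, those 4 and Klf6.

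Sequence features that the choice of members did not use were read from reference annotation of build GRCm38; coordinates below are of that build, since the quantified build, GRCm39, was not used for sequence. RefSeq promoter entries were found for 35 of the 45 members. None was found for Fosl1, Egr1, Egr3, Ier2, Klf10, Myc, Dusp4, Spry4, Trib1 or Zfp36l2. Only the 250 bases before the start were searched, so sites further away are not counted. The stretches of 250 bases ending just before the annotated start are shown for the 3 called genes that have an entry, Fosl2 (chr5:32136222-32136471, plus strand), Ier3 (chr17:35821463-35821712, plus strand) and Zfp36 (chr7:28379229-28379478, minus strand), and for Dusp5 (chr19:53528895-53529144, plus strand), which holds 2 adjoining CArG boxes, the binding sequence of serum response factor. Capitals mark matches on either strand to the CArG box, the NF-kB consensus or the EGR sequence GCGNGGGCG.
Fosl2: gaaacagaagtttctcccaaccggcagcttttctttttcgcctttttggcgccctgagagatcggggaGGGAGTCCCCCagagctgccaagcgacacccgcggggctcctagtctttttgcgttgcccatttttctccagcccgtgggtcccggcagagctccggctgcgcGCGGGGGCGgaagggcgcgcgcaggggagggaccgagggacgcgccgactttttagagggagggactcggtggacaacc
Ier3: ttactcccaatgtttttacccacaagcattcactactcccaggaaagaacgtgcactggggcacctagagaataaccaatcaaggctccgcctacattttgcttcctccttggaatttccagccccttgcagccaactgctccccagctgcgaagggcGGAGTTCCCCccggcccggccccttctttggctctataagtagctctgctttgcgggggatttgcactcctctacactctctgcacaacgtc
Zfp36: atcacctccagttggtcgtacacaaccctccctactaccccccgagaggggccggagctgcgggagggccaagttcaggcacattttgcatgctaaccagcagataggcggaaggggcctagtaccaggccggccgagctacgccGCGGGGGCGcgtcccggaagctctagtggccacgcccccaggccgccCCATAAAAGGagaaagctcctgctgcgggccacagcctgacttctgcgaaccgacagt
Dusp5: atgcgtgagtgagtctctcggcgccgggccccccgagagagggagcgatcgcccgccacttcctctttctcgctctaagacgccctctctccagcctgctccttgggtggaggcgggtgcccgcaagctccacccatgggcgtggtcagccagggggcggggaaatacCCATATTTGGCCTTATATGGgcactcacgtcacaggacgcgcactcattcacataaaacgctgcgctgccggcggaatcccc

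In Fosl2 the NF-kB matches, which overlap each other by all but a base, begin 182 and 181 bases before the start and the EGR match 79 bases before it. Ier3 holds an NF-kB match that begins 92 bases before the start. Zfp36 holds an EGR match that begins 105 bases before the start and a CArG box that begins 58 bases before it. The Dusp5 CArG boxes begin 82 and 72 bases before the start. Over any listed start of a gene, 3 of the 35 members (8.6%) held a CArG box, against 1.37% of 11785 other genes of the table with a promoter entry. The EGR sequence was in 12 members (34.3%) against 9.77% of the other genes, and the NF-kB consensus was in 9 (25.7%) against 10.7%. The E-box CACGTG was in 10 members (28.6%) against 9.25%, the CRE TGACGTCA in 3 (8.6%) against 2.76%, and the AP-1 sequence TGANTCA in 3 (8.6%) against 5.88%. TATAAA, searched on the gene's strand alone, was in 6 (17.1%) against 5.27%. The members' windows also had a higher G and C content, with a median of 64.4% against 59.2%, and the part of base composition in these shares was not tested. A match is a description of letters and not of binding in these kidneys.

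Tristetraprolin prefers the heptamer TATTTAT, with U for T in the message, so its presence in the longest annotated 3′ UTR of each gene was counted. It was found in 28 of the 45 members (62.2%) and in 29.2% of 14972 other genes, at similar median UTR lengths of 1190 and 1133 bases. The longer TTATTTATT was in 11 members (24.4%) and in 7.76% of other genes. Among the called genes, Ier3 held 4 heptamers, Fosl2 and Zfp36 itself held 3 each, and Myc held none. Fos and Maff held 2 each. A 30-base window is shown for Ier3, Zfp36, Fosl2, Fos and Maff, with the heptamers in capitals. The windows hold 2 of the Ier3 and 2 of the Zfp36 heptamers, and 1 for each of the other genes.
Ier3 (chr17:35822484-35822513, plus strand): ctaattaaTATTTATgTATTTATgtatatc
Zfp36 (chr7:28376958-28376987, minus strand): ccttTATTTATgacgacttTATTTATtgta
Fosl2 (chr5:32156201-32156230, plus strand): gaggcacttttcTATTTATcctcttttaag
Fos (chr12:85477102-85477131, plus strand): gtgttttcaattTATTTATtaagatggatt
Maff (chr15:79358777-79358806, plus strand): cttccacactctTATTTATtgcacgaatct

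Among the other AP-1 subunits, the JUN genes had larger differences than Fos, and none passed the threshold. Jun, the main partner of FOS proteins, had 3033, 2369.9 and 3846 normalized counts in the Arhgef11Sglt2 libraries and 1746, 1025, 2610.2, 1860.3 and 1936 in the Sglt2Cre libraries. Replicate 2 of Arhgef11Sglt2 lay below Sglt2Cre replicate 3, and the log2 difference was 0.63 (SE 0.21, limma adjusted p = 0.129). Junb, a JUN protein with weaker growth-promoting activity, had 1859.7, 1156 and 2357 against 915, 615, 1251, 1134 and 1164. Its groups overlapped likewise through replicate 2 (limma adjusted p = 0.128). Jund, the most constantly expressed JUN gene, averaged 3670.5 ± 928 against 2368 ± 444 (SD, limma adjusted p = 0.101).

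Fos, the classic immediate early gene, had 210.0, 162 and 463 normalized counts in the Arhgef11Sglt2 libraries and 197, 139, 172, 193 and 239 in the Sglt2Cre libraries. Only replicate 3 lay outside the control range. The fold of 1.48 was 0.99 without it, and the fitted log2 difference was 0.20 (95% interval -0.10 to 0.50, limma adjusted p = 0.436). Fosb, a close FOS relative, had 41.9, 38.1 and 160.4 against 30.5, 10.9, 66.6, 29.6 and 30.5, so that its fold of 2.38 became 1.19 without replicate 3. Fosl1, which encodes FRA1, had 57.9, 40.9 and 279 against 11.4, 11.7, 17.7, 59.8 and 14.6. Its fold of 5.46 became 2.14 without Arhgef11Sglt2 replicate 3 and 9.07 without Sglt2Cre replicate 4 (limma adjusted p = 0.16 with all libraries).

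None of the 3 EGR zinc finger factors passed in limma, and none had an unadjusted p under 0.05. Egr1, a rapid sensor of growth factor signals, had 1004, 852 and 1591 normalized counts in the Arhgef11Sglt2 libraries and 733, 300.5, 845, 842 and 1047 in the Sglt2Cre libraries. Sglt2Cre replicate 2 was far below the other controls, and the groups overlapped (log2 difference 0.43, 95% interval -0.07 to 0.92, limma adjusted p = 0.302). Egr2 averaged 198 ± 66.5 against 162 ± 79.6, with Sglt2Cre replicate 2 at 37.7. Egr3 was among the 4 members with a negative difference, at 26.5 ± 14.9 against 37.7 ± 13.6 (SD, limma adjusted p = 0.516).

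Of the IER proteins besides Ier3, Ier2, a nuclear protein of the first wave, had 500.3, 394 and 634 normalized counts in the Arhgef11Sglt2 libraries and 384, 304, 403, 347 and 356 in the Sglt2Cre libraries (log2 difference 0.26, limma adjusted p = 0.142). Replicates 1 and 3 of Arhgef11Sglt2 were above all controls. Ier5, a regulator of the heat shock factor HSF1, averaged 974.8 ± 281 against 906 ± 80.3 (SD, limma adjusted p = 0.817), with Arhgef11Sglt2 replicate 1 at 1298 and the other replicates at 788 and 839.

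The NR4A genes, which encode orphan nuclear receptors, had a library pattern of their own. Nr4a1 had 209.8, 683 and 562 normalized counts in the Arhgef11Sglt2 libraries and 231, 129, 319, 284 and 252 in the Sglt2Cre libraries. Replicates 2 and 3 of Arhgef11Sglt2 were above every control, whereas replicate 1 was below all controls but replicate 2. Nr4a1 and Nr4a2 did not pass with all libraries (limma adjusted p = 0.201 and 0.334) and passed without replicate 1 (0.0202 and 0.0442). The fit without replicate 1 called more genes of the whole table than the fit with all libraries did. Nr4a2 had 27.9, 138 and 83.6 against 28.7 to 64.5 in the controls, and Nr4a3 had 63.6, 129.8 and 48.6 against 54.0, 15.8, 69.9, 33.7 and 54.9. All 3 NR4A genes were highest of the 8 libraries in Arhgef11Sglt2 replicate 2, and the only other member of which that was true was Klf2.

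Klf6, a zinc finger factor induced in injured epithelium, missed the threshold narrowly. It had 5469.8, 5264 and 7424 normalized counts in the Arhgef11Sglt2 libraries and 3361, 2303, 3771, 4144 and 3742 in the Sglt2Cre libraries. The groups did not overlap, and the fold was 1.75 (log2 difference 0.73, SE 0.16, limma adjusted p = 0.0536). Klf4, a factor of epithelial differentiation, also had no overlap, with 609.9, 598 and 907 against 471, 398, 511, 539.6 and 378 (limma adjusted p = 0.102). Klf10, an early target of TGF-beta, averaged 994 ± 205 against 680.0 ± 119.9 (SD, limma adjusted p = 0.125). Klf2, which responds to blood flow in endothelium, ran from 348 to 454 against 207 to 440.3 (limma adjusted p = 0.764).

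The small MAF proteins lack an activation domain and pair with other bZIP factors such as NRF2. Maff had 499.5, 242 and 708 normalized counts in the Arhgef11Sglt2 libraries and 184, 135, 284, 188 and 157 in the Sglt2Cre libraries. Replicate 2 of Arhgef11Sglt2 fell inside the control range, the fold was 2.55 (limma adjusted p = 0.0854), and the gene passed without that replicate (adjusted p = 0.017). Mafk had 1463, 1394 and 1594 against 1255, 1117, 1231, 1148 and 1132, with no overlap and a fold of 1.26 (limma adjusted p = 0.0774). Csrnp1, a nuclear protein induced by AXIN1, averaged 549 ± 147 against 332 ± 110.2 (SD, limma adjusted p = 0.157).

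**Figure D3:**
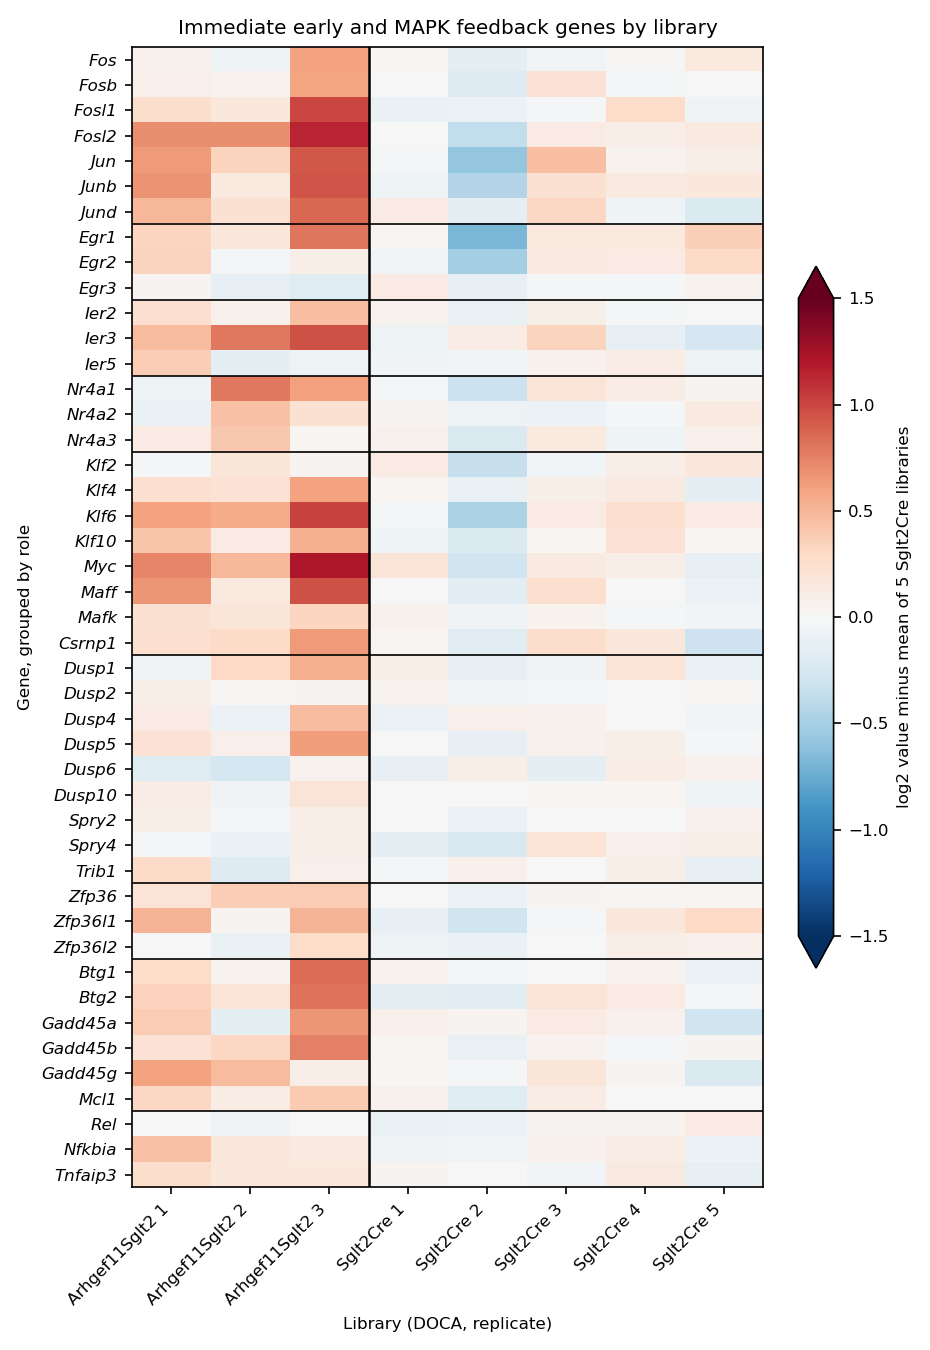
Colour shows the log2 value of each gene (rows, grouped by role between the black lines) in each library (columns, Arhgef11Sglt2 DOCA left and Sglt2Cre DOCA right) minus the mean of the 5 Sglt2Cre libraries. Arhgef11Sglt2 replicate 3 is reddest for most AP-1, KLF and growth arrest genes, the NR4A genes are reddest in replicate 2, and Sglt2Cre replicate 2 is the bluest control.

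On the deposited log2 scale the genes that terminate MAPK signalling had the smallest median difference of the 9 roles, 0.06. None of the 9 MAPK phosphatase, Sprouty and Tribbles genes passed in limma. At an unadjusted limma p under 0.05, 1 was higher, as were 9.04% of all genes. That scale understates differences of low genes. By fold, the middle value of these 9 genes was 1.228 (Dusp10), beside 1.227 (Egr2) for the EGR factors. Dusp6, the phosphatase of the ERK kinases that is transcribed in response to ERK activity, had 2196, 2046 and 2654 normalized counts in the Arhgef11Sglt2 libraries and 2309, 2741, 2279, 2785 and 2679 in the Sglt2Cre libraries. Replicates 1 and 2 of Arhgef11Sglt2 were below every control, and the log2 difference of -0.13 had a 95% interval of -0.34 to 0.08 (limma adjusted p = 0.453). The Sprouty genes, feedback inhibitors of receptor tyrosine kinases, gave log2 differences of 0.06 for Spry2 (95% interval -0.09 to 0.20) and -0.01 for Spry4 (95% interval -0.24 to 0.22). Spry4 averaged 412 ± 51.3 against 422 ± 99.3 (SD), and its sign changed with libraries scaled to equal totals.

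Dusp1, a nuclear phosphatase of p38 and JNK induced by stress and glucocorticoids, had 1069, 1485 and 1838 normalized counts in the Arhgef11Sglt2 libraries and 1215, 989, 1059.5, 1365 and 1000.1 in the Sglt2Cre libraries. Replicate 1 of Arhgef11Sglt2 lay within the control range (log2 difference 0.26, limma adjusted p = 0.275). Dusp5, a nuclear ERK phosphatase and the member with an unadjusted p under 0.05, had 149, 110.0 and 301 against 91.5, 64.0, 106, 112 and 84.2, a fold of 2.04 that was 1.42 without replicate 3 (limma adjusted p = 0.157). Dusp4, an ERK phosphatase of the nucleus, averaged 595 ± 197 against 475 ± 42.6 (SD). Dusp10, which acts on JNK and p38, had 122, 82.4 and 145 against 80.2 to 103 in the controls. For both, replicate 2 of Arhgef11Sglt2 lay inside the control range while replicates 1 and 3 were above it. Dusp2, an immune cell phosphatase, averaged 27.5 ± 5.01 against 21.6 ± 4.14, and Trib1, a pseudokinase that directs protein degradation, 1325 ± 292 against 1240.3 ± 99.5 (SD).

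The other tristetraprolin relatives did not pass. Zfp36l1 had 12666, 8998 and 12588 normalized counts in the Arhgef11Sglt2 libraries and 7932, 6973, 8559, 9792 and 10796 in the Sglt2Cre libraries (log2 difference 0.35, limma adjusted p = 0.218). Zfp36l2 averaged 3671 ± 581 against 3497 ± 254 (SD, limma adjusted p = 0.781). The 3 relatives thus had log2 differences of 0.32 (Zfp36), 0.35 (Zfp36l1) and 0.06 (Zfp36l2), of which that of Zfp36, with the smallest SE, was past the threshold.

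All 6 growth arrest and survival genes had positive differences, as did 47.9% of all genes. Of these, 3 were higher without overlap, as were 6.2% of all genes. None passed in limma, although 5 were higher at an unadjusted p under 0.05, as were 9.04% of all genes. Gadd45b, a stress sensor that binds upstream kinases of p38 and JNK, had 266, 307 and 552 normalized counts in the Arhgef11Sglt2 libraries and 192, 153, 201, 174 and 199 in the Sglt2Cre libraries, a fold of 2.04 (limma adjusted p = 0.0751). Without Arhgef11Sglt2 replicate 1 it passed (limma adjusted p = 0.0262), in a fit that called more genes of the whole table. Btg2, an antiproliferative protein, had 2044, 1809 and 3031 against 1333, 1288, 1803, 1676 and 1477, with Arhgef11Sglt2 replicate 2 just above Sglt2Cre replicate 3 (limma adjusted p = 0.11). Mcl1, a survival protein of the BCL2 family, had 9291, 8022 and 9829 against 7719, 6454, 7998, 7413 and 7345 (limma adjusted p = 0.132).

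Gadd45a, a p53 target that also responds to other stress, had 1836, 1125 and 2344 normalized counts in the Arhgef11Sglt2 libraries and 1391, 1341, 1454, 1381 and 962 in the Sglt2Cre libraries. Replicate 2 of Arhgef11Sglt2 was below 4 of the 5 controls (limma adjusted p = 0.33). Gadd45g went the other way among replicates, with 1316, 1168 and 793 against 733, 695, 862, 739.9 and 550.5 (limma adjusted p = 0.112), so replicate 3 was the lowest of its group. Btg1 averaged 5619 ± 1809 against 4052 ± 187 (SD, limma adjusted p = 0.175), with Arhgef11Sglt2 replicate 3 at 7657.

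Both inhibitors of NF-kB among the members were higher without overlap between the groups, as were 6.2% of all genes, and did not pass. Nfkbia, which encodes the inhibitor IkB-alpha and is itself an NF-kB target, had 1652, 1279 and 1234 normalized counts in the Arhgef11Sglt2 libraries and 1039, 1041, 1159.8, 1218 and 997 in the Sglt2Cre libraries (log2 difference 0.25, limma adjusted p = 0.154). Tnfaip3, which encodes the ubiquitin-editing enzyme A20, had 657, 584 and 586 against 505, 475, 455, 566 and 411 (log2 difference 0.19, limma adjusted p = 0.162). For both genes replicate 1 of Arhgef11Sglt2 was highest. Rel, an NF-kB subunit of lymphoid cells, averaged 305 ± 14.3 against 312 ± 45.1 (SD, limma adjusted p = 0.942), and its sign, like that of Spry4, turned with equal totals.

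The libraries themselves differed over the members as a group. Arhgef11Sglt2 replicate 3 was the highest of the 8 libraries for 29 of 45 members (64.4%), where it was highest for 22.4% of all genes. Its median deviation from the control mean over the members was 0.50, against 0.25 in replicate 1 and 0.15 in replicate 2. It was above every control for 34 members, replicate 1 for 30 and replicate 2 for 19. Replicates 1, 2 and 3 were below every control for 2, 4 and 1 members. The shares of all genes above every control were not counted by library. Over all genes, replicates 1 and 2 were highest of the 8 libraries for 14.0% and 9.1%, and replicate 3 was lowest for 26.0%. Among the controls, Sglt2Cre replicate 2 was the lowest of all libraries for 27 members (60.0%), where it was lowest for 17.2% of all genes, and its median deviation was -0.12, against -0.003 to 0.07 in the other controls.

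**Figure D4:**
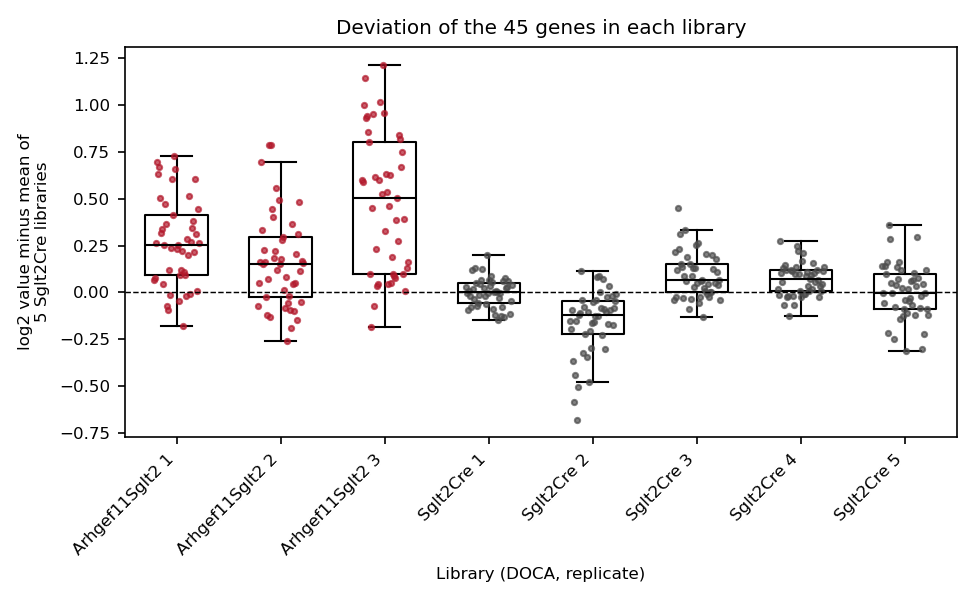
Each point is a gene, and its height is its log2 value in that library minus the mean of the 5 Sglt2Cre libraries; boxes give the quartiles and median, and whiskers reach the last point within 1.5 box heights. The medians of the Arhgef11Sglt2 DOCA libraries (red) are 0.25, 0.15 and 0.50, and Sglt2Cre replicate 2 has the lowest median of the controls (grey), -0.12.

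Marker sums of other cell types in those libraries were as follows, and their part in the members' values was not tested. In Arhgef11Sglt2 replicate 3 the macrophage markers (8 measured) summed to 18557 normalized counts and the fibroblast and pericyte markers (7 measured) to 15651, the lowest of the 8 libraries for both, where the other Arhgef11Sglt2 libraries had 51196 and 31346 for macrophages. In Sglt2Cre replicate 2 the endothelial markers (7 measured) summed to 13473, against 19683 to 25226 in the other controls. The podocyte markers (5 measured) summed to 13921 there, against 17651 to 19339 in the other controls. The injured proximal tubule markers reached their highest control sum there, 600300.4, of which Spp1 was 512083. Neutrophil markers (5 measured) summed to 392 to 633 in Arhgef11Sglt2 and 179.9 to 402 in Sglt2Cre, with Retnlg called higher. T and NK lymphocyte markers (7 measured, none called) summed to 146 to 291 and 238 to 506. B and plasma cell markers (6 measured) summed to 758 to 2821 in Arhgef11Sglt2 and 2905 to 12114 in Sglt2Cre, without overlap. Jchain (0.152-fold) and Igkc (0.172-fold) were called lower, and Igkc was most of each sum. The lowest control sum was that of Sglt2Cre replicate 2, against 9146 to 12114 in the other controls. Of 5 thick ascending limb markers, 3 were lower without overlap, as were 8.14% of all genes, and 1, Cldn10, was called (0.659-fold). Their sums ran from 232109 to 279253 in Arhgef11Sglt2 and from 274663 to 322669 in Sglt2Cre. Most of each sum was Umod, which was not called (1.015-fold, limma adjusted p = 0.944). No marker of the distal convoluted tubule and collecting duct (8 measured) or of red blood cells (5 measured) was called. The sums were 125737 to 137675 and 132989 to 175187 for the distal markers, and 5151 to 13570.3 and 4922 to 23098 for the red cell markers, in Arhgef11Sglt2 and Sglt2Cre. No marker of any of the 12 lists was at 0 in every library.

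Genes of the same pathways outside the 45 were read from lists drawn up with earlier results of these libraries known. Among 32 other immediate early genes, 27 had a positive difference (median 0.24), as did 47.9% of all genes. Of the 32, 1 passed in limma, higher, where 0.627% of all genes did. It was Cebpd, a transcription factor of the acute phase response, with 679, 481 and 782 normalized counts in the Arhgef11Sglt2 libraries and 234, 228, 323, 193 and 212 in the Sglt2Cre libraries, a fold of 2.72 (log2 difference 0.73, SE 0.10, limma adjusted p = 0.0168). The groups were well apart, since the lowest Arhgef11Sglt2 library exceeded the highest control by more than the range of the controls. Plk3, a stress-induced kinase, was next, with a fold of 2.08 (limma adjusted p = 0.0814).

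Among 18 NF-kB subunits, inhibitors and targets, Nfkbiz passed, higher, and 17 had a positive difference (median 0.23), against 47.9% of all genes. Nfkbiz, an atypical nuclear IkB protein, had 1769, 1339 and 1971 normalized counts in the Arhgef11Sglt2 libraries and 1006, 798, 1201, 1050.2 and 938 in the Sglt2Cre libraries, a fold of 1.70 without overlap (log2 difference 0.55, limma adjusted p = 0.043). Birc3, an NF-kB-induced inhibitor of apoptosis, had a fold of 1.596 (limma adjusted p = 0.0637).

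No gene of the upstream lists passed in limma. The shares of all genes at an unadjusted p under 0.05, 9.04% higher and 12.1% lower, stand beside the list counts that follow. The list of the RAS-RAF-MEK-ERK cascade held 22 genes and also counted Mapk7 (ERK5) and Map2k5, which form a separate module. Of the 22, 2 (9.09%) had an unadjusted p under 0.05, both higher, a share near that of all genes. They were Mapk7 (1.31-fold, limma adjusted p = 0.128) and the adaptor Shc1 (1.21-fold, limma adjusted p = 0.163). Of 17 genes of the JNK and p38 cascades, 9 had an unadjusted p under 0.05, 7 higher (41.2%) and 2 lower (11.8%), the second share being near that of all genes. The stress kinase Mapk13 had a fold of 1.42 and the p38 activator Map2k6 a fold of 0.667 (limma adjusted p = 0.079 and 0.0767), each without overlap. Among 9 EGF family ligands and receptors, Egf, a ligand made in the thick ascending limb and distal tubule, had 24721, 44793 and 17199 normalized counts in the Arhgef11Sglt2 libraries and 50129.5, 46526, 51535, 50187 and 62837 in the Sglt2Cre libraries. The groups did not overlap, and replicate 2 of Arhgef11Sglt2 lay close to the controls (log2 difference -0.94, limma adjusted p = 0.0788). In that list 3 genes were higher and 1 lower at an unadjusted p under 0.05.

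The remaining lists held no called gene in limma either. Of 14 factors that induce immediate early genes, 3 had an unadjusted p under 0.05, led by Mrtfb, a coactivator of serum response factor (1.34-fold, limma adjusted p = 0.0536) and Crem, a cyclic AMP responsive factor (1.30-fold, 0.147). Of 18 AP-1 and MYC partner factors 2 did, led by Atf3, a stress-induced repressor, with 364.5, 415.5 and 531.5 normalized counts in the Arhgef11Sglt2 libraries and 261, 130.0, 257, 265 and 348 in the Sglt2Cre libraries (limma adjusted p = 0.11), and by Atf7 (1.33-fold, 0.196). Of 16 other MAPK feedback genes 4 did, all higher, led by the pseudokinase Trib3 (2.12-fold, limma adjusted p = 0.184) and the phosphatase Dusp8 (1.89-fold, 0.189). Of 13 genes of AU-rich message decay, 1 was higher and 1 lower at that level. These were Hnrnpd, an AU-rich element binding protein (1.26-fold, limma adjusted p = 0.101), and the adaptor Ywhab (0.839-fold, 0.22).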

How the data were processed

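RNA of 8 kidney samples was quantified per gene. The values that the authors deposited are log2 values after variance stabilization, as judged from the values themselves, which have decimals and the same minimum of 8.13 in all 8 columns, where a zero count lies. The submitters' processing notes name Salmon 1.10.0, DESeq2 and GRCm39, with no settings. Normalized counts were obtained by inverting the transformation at that minimum; raw counts and their counting error are therefore unknown. Folds are ratios of mean normalized counts. Tests, log2 differences and SE use the deposited log2 scale, which understates differences of low genes. Symbols matched 15902 of 15948 identifiers (99.71%).

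limma 3.58.1 in R 4.3.3 was fitted on all libraries and genes with group as the only term and a mean-variance trend. Tests were two-sided, with Benjamini-Hochberg adjustment and 6 residual degrees of freedom. The procedure was tried on simulated data with independent noise and 200 changed genes. At a log2 change of 0.5 it recovered 70.0% of them, and 5.41% of its calls were false. Shifts shared by a whole library were not simulated. Members and lists were chosen with earlier results of these data known. Values by library are given for members that passed, that did not overlap or that a list of 12 well-known genes holds, and for others chosen after their values were seen. From pathway lists, genes that passed are named, otherwise those with the smallest p; Plk3, Birc3 and the values by library of Egf and Atf3 were chosen after they were seen. The 16 alternatives were a filter at a mean of 50 normalized counts, no trend, sample weights, a replicate block, the number range, pseudocounts of 1 and 10, equal totals, and each library left out.

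Promoter sequences came from RefSeq (GRCm38.p6) and 3′ UTRs from GENCODE M21 basic transcripts (GRCm38).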

Additional observations from a re-analysis of the deposited data

Results flagged for a closer look

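Among the 5 Sglt2Cre libraries, 3 of the 45 genes had a library whose gap to its nearest neighbour took up more than 0.71 of the group's range, a level that chance passes in about 1 group in 20. Fosl1 had 59.8 normalized counts in Sglt2Cre replicate 4, above the other controls. Fosl2 had 1078 in Sglt2Cre replicate 2, below the other controls. Gadd45a had 962 in Sglt2Cre replicate 5, below the other controls.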

How the results depend on the processing

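The members called higher numbered 4 with the filter, no trend or either pseudocount, and 5 with the number range or equal totals. Sample weights gave 8 members, 874 genes against 354, and a median log2 difference of 0.183. With pseudocounts of 1 and 10 the median was 0.479 and 0.432. With a replicate block limma called 0 members and 0 genes, with 22 members and 2166 genes at an unadjusted p under 0.05. The numbers do not pair the samples (same-number correlations -0.18, -0.09 and -0.01). Leaving out each library gave 0 to 8 members, 24 to 1334 genes and medians of 0.21 to 0.334. There were 0 members in limma without Arhgef11Sglt2 replicate 3 or Sglt2Cre replicate 4 or 5 (45, 24 and 76 genes). At an unadjusted limma p under 0.05, 15, 26 and 24 members were higher in those fits. The shares of all genes at that level are not given here. There were 8 members without Arhgef11Sglt2 replicate 1 (1334 genes), and 1 and 2 without Sglt2Cre replicates 1 and 3 (187 and 135 genes). In limma 0 members were called lower in any setting, with 1 at an unadjusted p under 0.05 without Arhgef11Sglt2 replicate 3 and 0 otherwise. The cause of these moves was not tested.

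Sign changes touched genes that were not called. With sample weights the log2 difference was -0.086 for Trib1, -0.071 for Ier5, -0.042 for Zfp36l2, -0.008 for Egr2 and -0.004 for Dusp10. Rel and Spry4 had 0.043 and 0.047 with the replicate block, and 0.006 and 0.01 with equal totals. With each library left out, values ran from -0.055 to 0.182 for Trib1, -0.101 to 0.147 for Ier5, -0.041 to 0.017 for Rel, -0.068 to 0.041 for Spry4, -0.003 to 0.334 for Fos, -0.055 to 0.132 for Zfp36l2 and -0.015 to 0.113 for Klf2.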
